A study of Mus musculus with 56 samples.

Results

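Ctla2a and Ctla2b encode small mouse proteins that inhibit cysteine proteases, and their response to transforming growth factor β1 (TGF-β1) was followed in cultured keratinocytes, the cells that build the epidermis. The probes annotated to either gene in the platform annotation were taken, which gave 2 of the 9596 probes on the arrays, 1 for Ctla2a and 1 for Ctla2b, among 6795 named genes. Both genes were picked because their responses in these same arrays were already known to be large, so their levels are given as a description and carry no test. Each value is a log2 ratio of treated over untreated cells, with every array centred on its median.

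Papain-like cysteine proteases such as cathepsin L are made as inactive precursors whose propeptide lies across the active site. Ctla2a and Ctla2b resemble that propeptide without the protease that usually follows it, and Ctla2a protein inhibits cathepsin L-like enzymes. The genes were first described in activated T cells and mast cells, from which the name cytotoxic T lymphocyte-associated protein comes. In skin, cathepsin L is known for its part in the hair cycle and in the turnover of the epidermis.

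RNA came from skin keratinocytes of newborn mice, and each 2-colour array set RNA of cells given TGF-β1 at 1 ng/ml against RNA of matching cells left untreated. Balb/c keratinocytes were used either as primary cultures or after transduction with a replication-defective retrovirus that carries the Ha-ras gene (ras cells), so that the untreated controls of ras cells carry Ha-ras too. They were treated for 1, 6, 24 or 48 h. The primary cells had 6 arrays in use at 1 h, 7 at 6 h, 6 at 24 h and 3 at 48 h. The ras cells had 6, 7, 6 and 4. Keratinocytes of the strain C57B1/SVJ, Smad3+/+ or Smad3-/-, as primary or ras cells, were treated for 48 h, with 1 array of each kind in use. Smad3 is one of the proteins that the TGF-β receptor activates and that then regulate genes in the nucleus. A further 7 arrays with the dyes reversed, 5 of Balb/c and 2 of Smad3-/- cells, stayed out of every mean, because the sources used here do not state whether their sign had been turned.

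Nothing says that arrays of 1 group came from separate cultures, so spreads and p-values measure only the variation between arrays. A ratio shows no level of expression. The arrays therefore cannot show how abundant either transcript was, whether the cells held keratinocyte markers before treatment, or whether Smad3 was lost. The 49 arrays in use all carried treated RNA in Cy5, and a bias of a probe towards 1 dye stays in every response. Treated over untreated is the likely direction, from the order of the channels. In a list of known TGF-β target genes, 23 of 88 tests passed as higher and 1 as lower (limma, adjusted p under 0.05, where 3.23% of all tests passed). The list was chosen with earlier results of these data known, so its count is a description and no test of the direction. With the reversed arrays kept as deposited, 2 of the 88 passed. Over all 56 arrays, the spread (SD) of all log2 ratios ran from 0.194 to 1.81. The widest were replicate 1 of ras cells at 24 h, at 1.81, and replicate 1 of primary cells at 6 h, at 1.68.

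The genes lie on mouse chromosome 13, on the minus strand, with Tpbpb between them. The 250 bases before each annotated start are shown because the genes are close paralogs whose largest responses came in the same groups, so what their upstream sequences share can be read directly. Both are from RefSeq on GRCm38.p6, Ctla2a at chr13:60936626-60936875 and Ctla2b at chr13:60897448-60897697, written 5′ to 3′ on the gene's strand. The RefSeq record of Ctla2b reaches upstream of the start used for this window. Capitals mark matches, on either strand, to CAGAC (a core that SMAD proteins are known to bind), to TGANTCA (which covers the AP-1 site) and to TATAAA (the TATA box).
Ctla2a: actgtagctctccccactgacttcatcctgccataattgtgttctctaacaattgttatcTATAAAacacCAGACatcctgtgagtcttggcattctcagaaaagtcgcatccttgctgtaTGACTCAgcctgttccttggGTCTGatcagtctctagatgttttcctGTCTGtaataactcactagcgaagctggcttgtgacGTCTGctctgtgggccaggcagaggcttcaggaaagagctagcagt
Ctla2b: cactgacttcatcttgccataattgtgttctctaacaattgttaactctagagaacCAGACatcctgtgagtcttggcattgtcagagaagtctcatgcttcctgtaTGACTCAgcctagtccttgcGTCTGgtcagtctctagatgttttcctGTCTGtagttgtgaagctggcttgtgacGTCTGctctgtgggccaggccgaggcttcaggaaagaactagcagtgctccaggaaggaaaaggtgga
CAGAC, read as GTCTG on the other strand, was found 4 times in each, starting 180, 109, 82 and 46 bases before the Ctla2a start and 194, 123, 96 and 68 bases before the Ctla2b start. TGANTCA was found once in each, 129 and 143 bases before the start. TATAAA was found 190 bases before the Ctla2a start and not in the Ctla2b window. GTCTAGAC, the palindromic SMAD site, was in neither. No match overlapped another. Of 32817 mouse promoter windows of this length, 42.2% held CAGAC at least once, 6.75% TGANTCA, 12.4% TATAAA and 0.168% GTCTAGAC. The share of windows with 4 matches to CAGAC is not given here, so the count of 4 has no base to be set against. An alignment of the windows joined 228 bases, 208 of them identical (91.2%). The matches are letters in a window and show no binding.

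In ras cells, both genes had their largest mean response at 24 h. Ctla2a ran from 0.83 through a median of 2.52 to 3.54 on the 6 arrays, a mean of 2.18 ± 1.02 (log2, SD, n = 6) or 4.55-fold. Its mean ranked 2 of 8905 features in that response. In bulk RNA, fewer or more cells with a transcript and less or more of it per cell cannot be told apart. Ctla2b ran from 0.48 through a median of 1.97 to 2.83, a mean of 1.94 ± 0.87 (SD, n = 6) or 3.84-fold, ranking 3. All 6 arrays were above 0 for both genes, but the arrays differed widely. Replicates 3 and 5 were the 2 lowest for Ctla2a, at 0.83 and 1.11, while for Ctla2b replicate 3 stood at 2.06 and replicate 5 at 0.48. Without the wide replicate 1, the means were 2.12 for Ctla2a and 2.01 for Ctla2b.

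In primary cells, the largest response came at 48 h. Ctla2a stood at 1.82, 2.61 and 1.62 on replicates 1, 2 and 5, a mean of 2.02 ± 0.52 (SD, n = 3) or 4.06-fold, ranking 23 of 8905. Ctla2b stood at 1.21, 2.42 and 1.22 on the same arrays, a mean of 1.62 ± 0.70 (SD, n = 3) or 3.07-fold, ranking 60. Replicate 2 was the highest for both genes, and without it the means were 1.73 and 1.21.

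**Figure D1:**
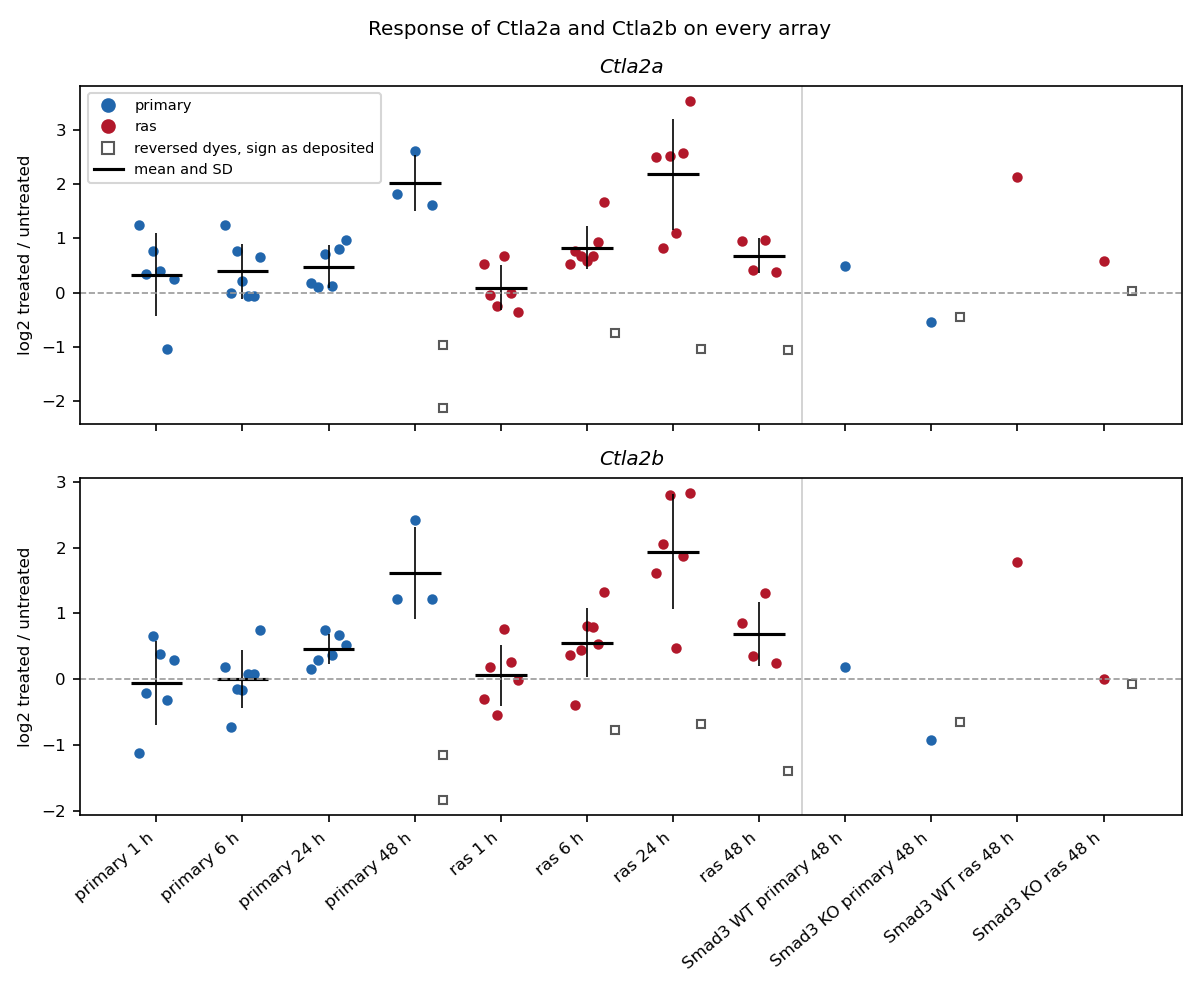
Log2 ratio of treated over untreated for Ctla2a (top) and Ctla2b (bottom) on every array, by cell type, time and Smad3 genotype. Filled points are arrays in use, blue for primary and red for ras cells, with bars for mean and SD of the Balb/c groups, and open squares are reversed-dye arrays with the sign as deposited. Ras cells at 24 h and primary cells at 48 h stand above the other Balb/c groups, with means from 1.62 to 2.18.

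Earlier times were lower in both cell types. In primary cells Ctla2a averaged 0.33 ± 0.77 (SD, n = 6) at 1 h, from -1.04 through a median of 0.37 to 1.25, so single arrays lay on both sides of 0. Without replicate 3 that mean was 0.14 and without replicate 5 it was 0.60. It averaged 0.39 ± 0.51 (SD, n = 7) at 6 h, from -0.07 through 0.22 to 1.25, and the highest of these was the wide replicate 1, without which the mean was 0.25. At 24 h it averaged 0.48 ± 0.39 (SD, n = 6), from 0.10 through 0.44 to 0.97, above 0 on every array. Ctla2b in primary cells averaged -0.06 ± 0.64 (SD, n = 6) at 1 h, from -1.12 through 0.04 to 0.66. At 6 h it averaged 0.01 ± 0.44 (SD, n = 7), from -0.72 through 0.07 to 0.74, and -0.02 without replicate 1. At 24 h it averaged 0.46 ± 0.23 (SD, n = 6), from 0.15 through 0.44 to 0.75. Both genes were thus above 0 on 6 of 6 primary arrays at 24 h, by less than at 48 h.

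In ras cells at 1 h, Ctla2a averaged 0.09 ± 0.42 (SD, n = 6), from -0.35 through -0.03 to 0.67, and was above 0 on 2 of 6 arrays. Ctla2b averaged 0.06 ± 0.46 (SD, n = 6), from -0.55 through 0.09 to 0.77, and was above 0 on 3 of 6. At 6 h Ctla2a was above 0 on 7 of 7 arrays, from 0.52 through 0.68 to 1.67, a mean of 0.83 ± 0.39 (SD, n = 7) that ranked 58 of 8905. Ctla2b was above 0 on 6 of 7, from -0.40 through 0.54 to 1.32, a mean of 0.55 ± 0.53 (SD, n = 7). Replicate 8 was the highest at 6 h for both genes.

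At 48 h in ras cells both genes had lower means than at 24 h. Ctla2a stood at 0.95, 0.42, 0.97 and 0.38 on replicates 1 to 4, a mean of 0.68 ± 0.33 (SD, n = 4) or 1.60-fold. Ctla2b stood at 0.86, 0.35, 1.30 and 0.24 on the same arrays, a mean of 0.69 ± 0.49 (SD, n = 4) or 1.61-fold. Replicates 1 and 3 were the higher pair and replicates 2 and 4 the lower pair for both genes. The Ctla2a values at 48 h overlapped those at 24 h, which began at 0.83, and the Ctla2b values did so too.

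Ordered by mean, ras cells at 24 h came first and primary cells at 48 h next for both genes. These groups differed by 0.17 for Ctla2a and 0.32 for Ctla2b, less than the larger of their SDs. The step from primary cells at 48 h to the third group was 1.19 for Ctla2a (to ras cells at 6 h) and 0.93 for Ctla2b (to ras cells at 48 h), in each case more than the larger SD, although the ranges still overlapped. Each later step in the order was smaller than the larger SD of the groups it joined. Neighbours in the order of the other 6 groups therefore did not differ beyond their spread.

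The cell types stood in opposite order at 24 and 48 h. At 24 h the ras mean exceeded the primary mean by 1.70 for Ctla2a and 1.48 for Ctla2b, and 5 of 6 ras arrays lay above every primary array for each gene. The exception was replicate 3 for Ctla2a and replicate 5 for Ctla2b. At 48 h ras minus primary was -1.34 for Ctla2a, with no overlap between 1.62 to 2.61 in primary cells and 0.38 to 0.97 in ras cells. For Ctla2b it was -0.93, and ras replicate 3, at 1.30, lay above 2 of the 3 primary arrays. At 6 h ras exceeded primary by 0.44 and 0.55 with overlapping ranges, and at 1 h the difference was -0.24 for Ctla2a and 0.12 for Ctla2b. How many of all features separated the cell types as at 24 and 48 h was not counted, so the separation is a description.

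On the Smad3 arrays, with 1 array each and no replicate check, both genes stood higher in wild-type than in knockout cells. In Smad3+/+ primary cells at 48 h Ctla2a was 0.49 and Ctla2b 0.19, against -0.55 and -0.93 in Smad3-/- primary cells. In ras cells they were 2.14 and 1.78 in Smad3+/+ and 0.58 and -0.00 in Smad3-/- cells. The Smad3+/+ primary values lay below the 3 Balb/c primary arrays at that time, and the Smad3+/+ ras values above the 4 Balb/c ras arrays, for each gene. In primary cells, wild type minus knockout was 1.04 for Ctla2a and 1.12 for Ctla2b. In ras cells it was 1.57 and 1.78. Among primary cells, 13.1% of features differed by at least 1 in either direction, and 8.09% and 7.19% had a difference as high as those of Ctla2a and Ctla2b. In ras cells 8.41% differed by at least 1, and 2.27% and 1.72% were as high. The reversed knockout arrays, as deposited, gave -0.45 for Ctla2a and -0.65 for Ctla2b in primary cells. In ras cells they gave 0.03 and -0.08.

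The 5 reversed Balb/c arrays were negative for both genes as deposited, from -2.14 to -0.75 for Ctla2a and from -1.84 to -0.68 for Ctla2b. With the sign turned, 3 of the 5 values of each gene fell inside the range of the other arrays of their group. Over all features, however, these arrays correlated between -0.07 and 0.13 with their group's other arrays (averaged), and the 2 knockout arrays at 0.48 and 0.41. The members' values and the rest of the array thus do not settle the same sign.

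The paralogs were compared with each other on every array, with an exact sign-flip permutation test (two-sided) in each of 8 groups. Ctla2a minus Ctla2b was 0.24 in ras cells at 24 h (95% interval -0.63 to 1.12, exact p = 0.469, adjusted 0.938) and 0.40 in primary cells at 48 h (interval -0.13 to 0.94, p = 0.25, adjusted 0.667, 3 arrays cannot go below 0.25). It was 0.38 in primary cells at 1 h (interval -0.73 to 1.49) and at 6 h (interval -0.10 to 0.87), and 0.28 in ras cells at 6 h (interval -0.14 to 0.70), with adjusted exact p of 0.95, 0.5 and 0.5. In the other 3 groups it ran from -0.01 to 0.03. None of the 8 differences passed, and those at 48 h could not have, since the smallest exact p was 0.25 for 3 arrays and 0.125 for 4. At the other times it was 0.031 for 6 arrays and 0.016 for 7. That is too large for any group to pass on its own after adjustment over 8 groups. The lack of a pass is therefore no sign that the paralogs respond alike, and differences of the size of these intervals remain possible.

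**Figure D2:**
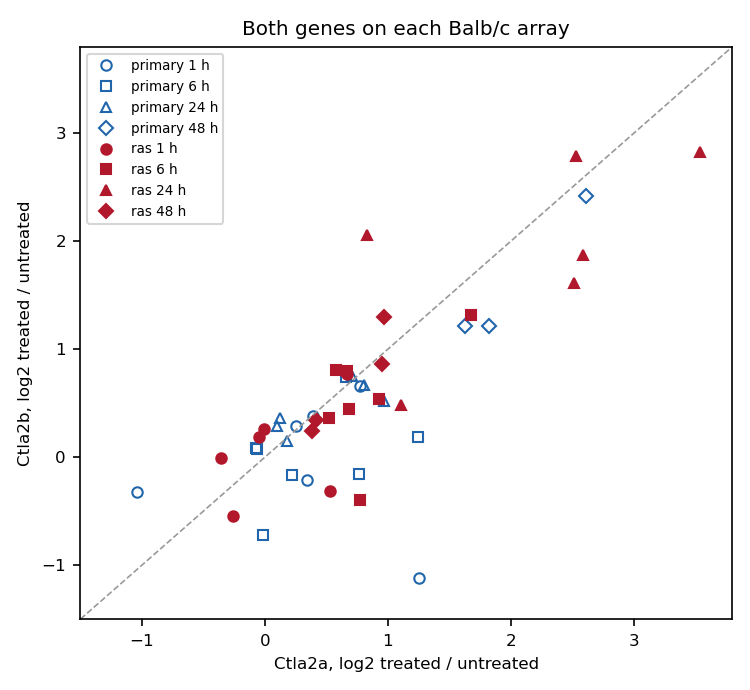
Log2 ratio of Ctla2b (vertical) against Ctla2a (horizontal) on the 45 Balb/c arrays in use, 1 point per array, open blue for primary and filled red for ras cells, the shape giving the time and the dashed line equality. Points of ras cells at 24 h and primary cells at 48 h lie at the upper right, and ras replicate 3 at 24 h lies above the line with Ctla2a at 0.83 and Ctla2b at 2.06.

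Over the 8 group means the paralogs correlated at r = 0.98 (Spearman 0.90). Deviations from the group means over 45 arrays correlated at r = 0.46 (Spearman 0.47). Both points of a pair share the array, its dyes and its RNA, and whether each probe tells the paralogs' transcripts apart is not given in the sources used here. The values of 1 gene may hold signal of the other.

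Among 6793 other named genes, those whose ratios over the 45 arrays were most like Ctla2a by Spearman correlation were Clu (0.68), Mllt11 (0.67), Mmp9 (0.65), Tmtc4 (0.63) and Ust (0.63). For Ctla2b they were Clu (0.74), Cpe (0.69), Mllt11 (0.67), Mthfd2 (0.65) and Farp1 (0.65). The paralogs themselves stood at 0.71. Clu encodes clusterin, a secreted chaperone, and Mmp9 a gelatinase. Cpe encodes carboxypeptidase E, which trims prohormones, and Mthfd2 a mitochondrial enzyme of folate metabolism. Clu and Mllt11 were thus on both lists.

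The shared part of the pattern differed from gene to gene. Clu was already at 2.12 in ras cells at 6 h and remained at 2.23 at 48 h, where Ctla2a stood at 0.68. Mmp9 was at 1.08 in ras cells at 24 h and 1.81 ± 2.04 (SD, n = 4) at 48 h, from -0.35 to 4.48, and without replicate 3 its mean at 48 h was 0.92. Over the 8 group means Clu correlated with Ctla2a at r = 0.81 and Mllt11 at 0.83, below the 0.98 between the paralogs. These genes were chosen by their likeness on the same arrays, so the values are a description.

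**Figure D3:**
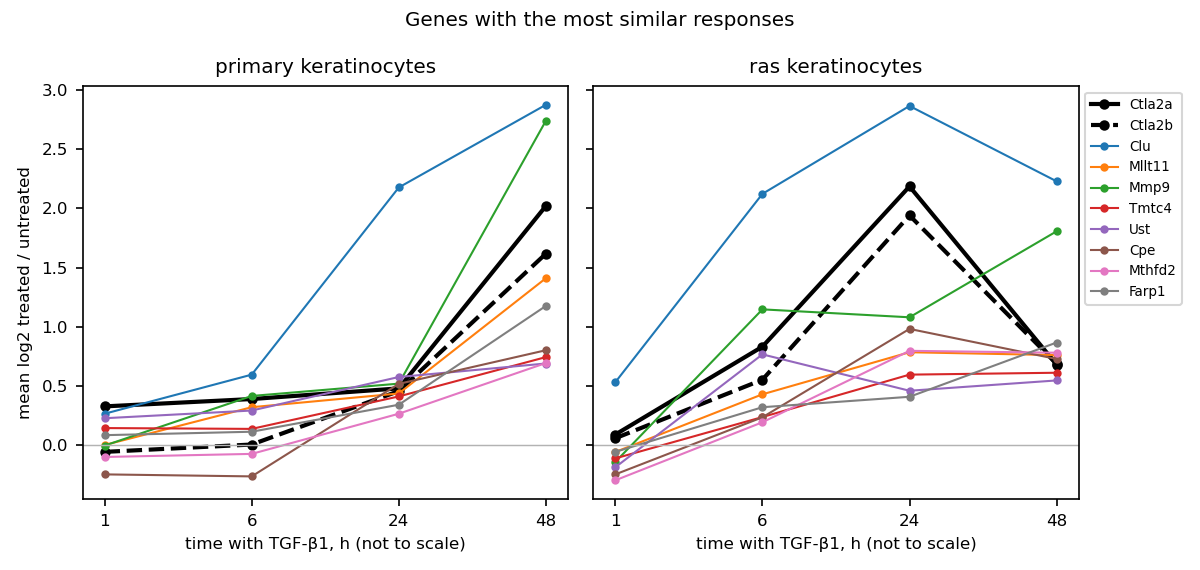
Mean log2 ratio of treated over untreated against time with TGF-β1 (not to scale) in primary (left) and ras cells (right), for Ctla2a, Ctla2b (black) and the 8 genes named as most alike (colours). In ras cells Ctla2a and Ctla2b stand at 2.18 and 1.94 at 24 h and at 0.68 and 0.69 at 48 h, where Clu stands at 2.23 and Mmp9 stands at 1.81.

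The papain-like proteases are the family that the inhibitors' propeptide fold comes from. Their list, which also took in the relatives Tinag and Tpbpa, had 12 of 23 genes on the arrays. Over the 8 responses 3 of 96 tests passed as higher and 2 as lower (5.21%, against 3.23% of all tests). All 3 rises were in primary cells at 48 h, where 5.11% of all features rose: cathepsin L (Ctsl) by 1.66 ± 0.62, cathepsin S (Ctss) by 1.68 ± 0.89 and cathepsin Z (Ctsz) by 1.32 ± 0.83 (log2, SD, n = 3), with limma adjusted p of 3.6e-05, 0.00014 and 0.00061. Ctsl was higher on 3 of 3 arrays, from 0.95 to 2.11. The list's median in that response was 0.30, against -0.05 over all features. In ras cells at 24 h, where the members were highest, no papain-like gene passed as higher, and Ctsl stood at 0.30 there. With each group fitted on its own arrays none of the 5 calls was made, and with the reversed arrays kept as deposited the list had 3.

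Each of the 2 falls was lost without 1 array. Ctsh fell by 0.59 in primary cells at 24 h (1.01% of features fell), on 6 of 6 arrays, with an adjusted p of 0.015, which rose to 0.114 without replicate 2. Ctsb fell by 2.0 in ras cells at 24 h (6.67% of features fell), but its SD was 3.89 and replicate 1, the widest array, stood at -9.83. Without that array its adjusted p was 0.379. Without replicate 1 of primary cells at 48 h the call of Ctsz was lost (adjusted p 0.079).

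Of 35 other genes for inhibitors of cysteine proteases, 8 were measured, and 1 of 64 tests passed (1.56%, against 3.23% of all tests). Cystatin B (Cstb), a cytoplasmic inhibitor of cathepsins, rose by 0.94 ± 0.41 (SD, n = 3) in primary cells at 48 h, with a limma adjusted p of 0.0042. The call was lost without replicate 2 or without replicate 5 (adjusted p up to 0.089), and over the alternatives the list had from 0 to 9 calls. In ras cells at 24 h Cstb stood at 0.31 and cystatin F (Cst7) at 0.36, and neither passed. The list's medians were 0.16 and 0.07 in these responses, where Ctla2a stood at 2.02 and 2.18.

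**Figure D4:**
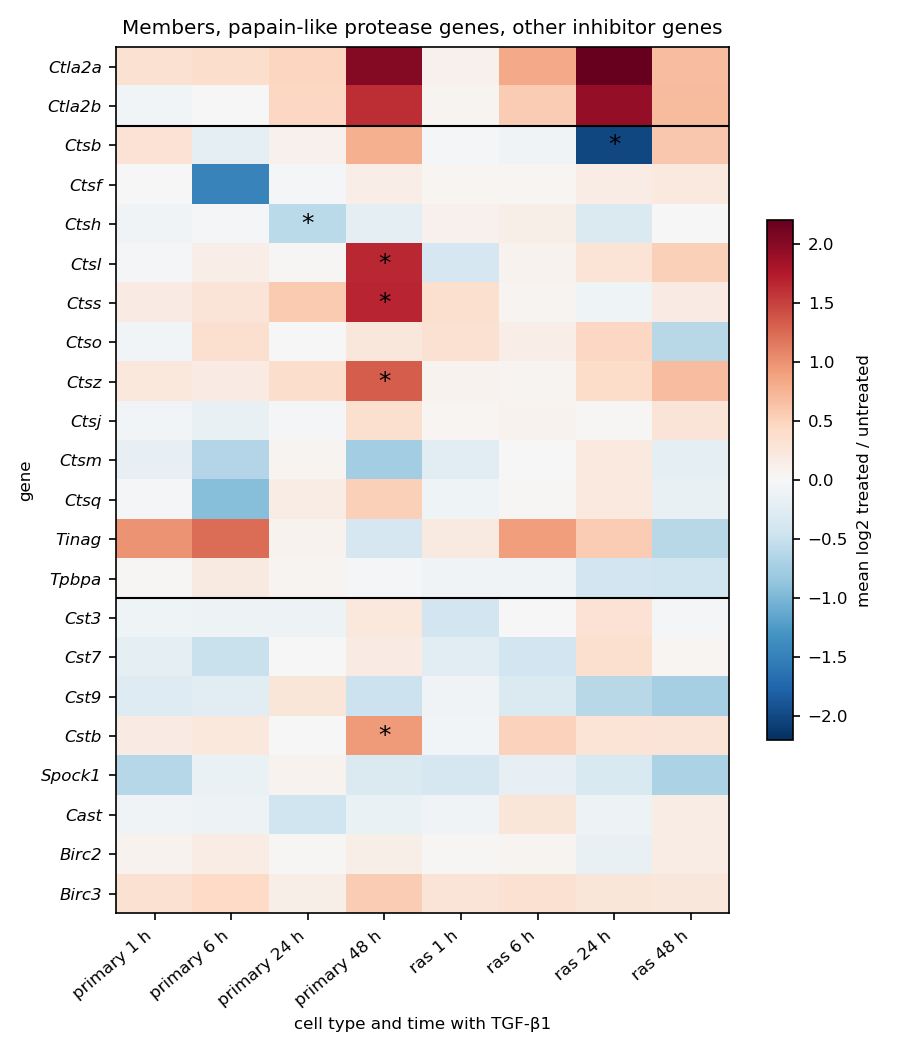
Mean log2 ratio of treated over untreated (colour, red higher and blue lower) in the 8 Balb/c responses. Rows are Ctla2a and Ctla2b (top), measured genes of the papain-like protease list (middle) and other inhibitors of cysteine proteases (bottom). Stars mark limma adjusted p under 0.05 and are not shown for Ctla2a and Ctla2b; they stand at Ctsl, Ctss, Ctsz and Cstb in primary cells at 48 h, at Ctsh in primary cells at 24 h and at Ctsb in ras cells at 24 h.

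Proteases of other kinds (calpains, lysosomal proteases, plasminogen activators and matrix proteases) had 18 of 25 listed genes on the arrays. Of their tests, 15 of 144 passed as higher and 0 as lower (limma, 31 of 144 at an unadjusted p under 0.05 in either direction). This was 10.4% of the list's tests, against 3.23% of all tests. The calls came only from Mmp2, Mmp9, Mmp14, Bmp1, Plau and Lgmn, mostly from the Mmp genes, and no calpain gene passed. The share therefore does not stand for every kind of protease listed, and the list was chosen with earlier results of these data known. In ras cells at 24 h, where 3.84% of features rose, 6 of 18 rose. They included Plau, the urokinase gene, at 0.91 ± 0.68 (SD, n = 6, adjusted p 0.0027), and Lgmn, which encodes the lysosomal cysteine protease legumain, at 0.63 ± 0.32 (SD, n = 6, adjusted p 0.0083). The calls of Plau, Lgmn, Bmp1 and Mmp2 there held without any 1 array of the group. That of Mmp14 was lost without replicate 1, 2, 6 or 7, and that of Mmp9 without replicate 1, 5, 6 or 7. Mmp2 rose by 1.83 ± 0.14 and Mmp9 by 2.74 ± 0.68 in primary cells at 48 h (SD, n = 3, adjusted p 4.7e-08 and 0.00039). Both of these calls held without any 1 array of that group. With the reversed arrays kept as deposited, 4 of the 144 tests passed, and with each group fitted on its own arrays 2.

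Genes of T cells and mast cells, the cells in which the inhibitors were first described, gave no call in the members' direction. Of 16 measured genes, 0 of 128 tests passed as higher and 3 as lower (limma, 15 of 128 at an unadjusted p under 0.05 in either direction). Calls were thus 2.34% of the list's tests, against 3.23% of all tests. Cd8a stood at -1.75 in primary cells at 48 h, where 3.49% of features fell, but without replicate 2 it stood at 0.03. Il2ra, a chain of the interleukin-2 receptor, stood at -0.84 in ras cells at 24 h, where 6.67% of features fell. Its call was lost without replicate 1, 3, 6 or 7 (adjusted p up to 0.235). The mast cell tryptase gene Tpsb2 stood at -1.07 in ras cells at 48 h, where 1.61% fell, and its call was lost without replicate 1 or 3 (adjusted p up to 0.113). With each group fitted on its own arrays, or the reversed arrays turned in sign, 0 of the 128 tests passed. The T cell markers averaged between -1.03 and -0.05 per array in primary cells at 48 h, and between -0.53 and 0.63 in ras cells at 24 h.

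Markers of other cell types also changed in primary cells at 48 h, where 5.11% of all features rose and 3.49% fell. There, 3 of 4 measured myeloid markers rose, Lyz2 (lysozyme) by 2.59, Tyrobp by 1.01 and Fcer1g by 0.77, and Cd68 did not pass. Per array the myeloid markers averaged from 0.84 to 1.63, and from -0.27 to 0.49 in ras cells at 24 h, where Lyz2 alone passed, at 0.54. Of 5 measured fibroblast markers Col1a2 rose by 1.83 in primary cells at 48 h and the others did not pass, with Col1a1 at 1.39, Pdgfra at 0.27, Dcn at 0.19 and Lum at -0.66. Per array they averaged from 0.29 to 0.88. Of 7 measured keratinocyte markers Krt10, Krt15 and Trp63 fell by 1.31, 1.02 and 1.01 in the same response. No endothelial marker (3 measured) and no melanocyte marker (1 measured) passed in any response. In ras cells at 24 h, where 3.84% of features rose and 6.67% fell, 1 keratinocyte marker, Itgb4, rose by 0.51 and none fell. Of these calls Lyz2 and Trp63 in primary cells held without any 1 array. Tyrobp, Fcer1g and Krt15 were lost without replicate 2, Col1a2 and Krt10 without replicate 1 or 2, Lyz2 in ras cells without replicate 1, 2, 3 or 6, and Itgb4 without replicate 1, 2, 3 or 7. The part of these cells in the members' responses was not tested.

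Retinoids, which derive from vitamin A and control the differentiation of keratinocytes, act beside TGF-β in skin, and a list of their genes was read beside the members. Of 14 measured genes, 4 of 112 tests passed as higher and 3 as lower (6.25%, against 3.23% of all tests). Crabp1, which binds retinoic acid in the cytoplasm, rose by 2.42 ± 0.32 (SD, n = 3, limma adjusted p 4.7e-08) in primary cells at 48 h and by 0.76 ± 0.63 (SD, n = 6, adjusted p 0.011) in ras cells at 24 h. Dhrs3, a retinal reductase, rose by 1.07 and 0.59 in the same responses. The falls were Rara by 1.97 and Rxra by 0.98 in primary cells at 48 h, and Cyp26a1 by 1.11 in ras cells at 24 h, where replicate 7 stood at -5.54. In primary cells the calls of Dhrs3 and Rxra were lost without replicate 2 and that of Rara without replicate 5, with adjusted p up to 0.068, 0.123 and 0.428. In ras cells those of Crabp1 and Dhrs3 were lost without replicate 2 and replicate 7 (0.063 and 0.065), and that of Cyp26a1 without replicate 1, 6 or 7 (up to 0.593). With the reversed arrays kept as deposited the list had 1 call, and with separate fits per group 0.

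Next to the members on chromosome 13 lie placental relatives of the same fold. Among 21 genes (10 on each side and Tpbpb between), 5 were measured, namely Gas1, Dapk1, Tpbpa, Ctsj and Ctsq. Tpbpa, Ctsj and Ctsq passed in none of the 8 responses. Gas1, which encodes a growth arrest protein, stood at -1.73 in primary cells at 48 h (limma adjusted p 0.041), where 3.49% of features fell. Its sign was opposite to the members, and its call was lost without replicate 1 or 2 (adjusted p up to 0.655). In total 1 of 40 tests of these neighbours passed (2.5%, against 3.23% of all tests), and 2 had an unadjusted p under 0.05.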

How the data were processed

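The authors deposited 9596 probes for each of 56 arrays, none empty, as log ratios of unstated base. They were read as log2 ratios, since sizes reach 11.3. How the authors scanned, corrected and normalized the arrays is not given in the sources used here. Spot brightness was not used, so the number of arrays limits the precision. The labels place untreated RNA in channel 1 and treated RNA in channel 2.

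Gene names came from the platform annotation: 7486 probes had 1 symbol, 483 several and 1627 none listed, and 7395 were matched to RefSeq. Averaging the probes of a symbol gave 8905 features, and each array was centred on its median. The 49 arrays of 1 dye orientation were fitted together with limma 3.58.1 in R 4.3.3 (lmFit, eBayes), and each group mean was tested against 0, two-sided, with Benjamini-Hochberg adjustment over all features and a threshold of 0.05. SciPy 1.17.1 gave the permutation tests, adjusted over 8 groups, and Biopython 1.88 the alignment. Intervals are 95% t intervals over arrays. The fit was tested on simulated data.

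The members and gene lists were chosen with earlier results of these data known. Named are the members, the 5 genes most like each member, and measured genes among the 10 on each side. Called genes of the lists are named too, except for most of the TGF-β list. Cst7 and Cd68 were picked after their values were seen, and the uncalled fibroblast markers are named as well. Alternatives were other treatments of the reversed arrays, no centring, arrays scaled to 1 spread, group medians, a replicate block, array weights, runs of neighbouring experiment numbers as a random block, a filter on low spread (lowest 25%), separate fits per group, and each array left out in turn. Same-numbered arrays were not treated as pairs, since the labels give them only a number in common.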

Additional observations from a re-analysis of the deposited data

Results flagged for a closer look

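Gaps between 1 array and the rest of its group were looked for in 59 groups of values, of which chance alone flags about 1 in 20. Ctla2a in ras cells at 6 h stood at 1.673 on replicate 8, apart from 0.523 to 0.926 on the other 6 arrays. Ctla2a minus Ctla2b in ras cells at 48 h was -0.330 on replicate 3, against 0.071 to 0.139 on the other arrays.

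Among other genes, Ctsb stood at -9.825 in ras cells at 24 h on replicate 1, with the other arrays from -1.666 to 0.263. Cyp26a1 stood at -5.545 on replicate 7 of the same group, with the others from -0.867 to 0.526. Pdgfb stood at 2.588 in primary cells at 24 h on replicate 6, with the others from 0.569 to 1.033. Skil stood at -0.005 in ras cells at 6 h on replicate 6, with the others from 0.817 to 1.267.

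In primary cells at 48 h both members had opposite signs in the Smad3 genotypes. Ctla2a was -0.553 in knockout and 0.491 in wild-type cells, and Ctla2b -0.931 and 0.186. With 1 array each the difference was not tested.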

How the results depend on the processing

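The members' means moved by less than 1 SD with the reversed arrays turned, no centring, arrays scaled to 1 spread, the replicate block, group medians, the 2 widest arrays left out, and each array left out in turn. Means near 0 (Ctla2a in ras cells at 1 h, Ctla2b at 1 h in both cell types and in primary cells at 6 h) changed sign under some of these. With the reversed arrays kept as deposited, the mean of Ctla2a was 0.588 in primary and 0.331 in ras cells at 48 h, and that of Ctla2b 0.370 in primary cells at 48 h.

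Ctla2a minus Ctla2b changed sign in 4 groups. It was 0.060 in ras cells at 48 h with the reversed arrays kept, and with arrays scaled to 1 spread -0.043 in primary cells at 24 h, -0.017 in ras cells at 1 h and 0.008 in ras cells at 48 h. With each array left out it ran from -0.014 (without replicate 3) to 0.604 in primary cells at 1 h, where it was 0.384 over all arrays, from -0.061 to 0.076 at 24 h, from -0.131 to 0.106 in ras cells at 1 h and from -0.056 to 0.101 at 48 h. None of these differences passed.

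Counts of calls moved further. Papain-like protease genes (5 calls) had 3 with the reversed arrays kept and 0 with each group fitted on its own arrays. Other inhibitors (1 call) had 0 with reversed arrays turned or separate fits, 4 with arrays scaled to 1 spread, 9 with array weights, 2 with runs of experiment numbers as a random block, 3 without the 2 arrays of widest spread (chosen after seeing the data), and 0 to 3 with each array left out. Other proteases (15) had 4 with reversed arrays kept, 9 with them turned, 24 with array weights and 2 with separate fits. T cell and mast cell genes (3) had 0 with reversed arrays turned or separate fits, and 2 to 5 with each array left out. TGF-β target genes (24) had 2 with reversed arrays kept and 7 with separate fits, and retinoid genes (7) had 1 and 0. Cd8a in primary cells at 48 h ran from -2.654 to 0.025 with each array left out. Separate fits rest on fewer arrays, and the cause of the other changes was not tested.

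The replicate numbers were not treated as pairs. Over 19 pairs of same-numbered arrays the correlation of deviations ran from -0.233 to 0.390. Its median was 0.048 and it exceeded 0.1 in 5. These correlations cannot show whether same-numbered arrays shared cultures. With the replicate block, papain-like genes had 3 calls and other inhibitors 2, and the counts of the 4 other lists given here moved by less than 1.5 times. Gas1 lost its call. Each member has 1 probe, so taking probes singly changes no value of theirs.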
